A study of Mus musculus with 6 samples.

Results

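Gene expression in the colonic mucosa of wild-type C57BL/6 mice was described from the wild-type channel of 4 two-colour oligonucleotide arrays, out of 6 arrays in the series (4 for expression and 2 for DNA methylation). Each expression array carried RNA of 1 wild-type and 1 Tlr2 knockout sample, labelled with different dyes, and the wild-type channel was chosen from the dye labels. The wild-type samples are called 1, 2, 4 and 5 after the number of the knockout sample on the same array. Samples 1 and 2 carried Cy5 (red) and samples 4 and 5 carried Cy3 (green). All 4 came from animals of 90 postnatal days, and the mucosa was scraped off with a glass slide, so that each sample is a mixture of epithelium and whatever tissue came with it. No label says outright that the samples are separate animals, and the sex of the mice is not labelled. The knockout channel entered only a filter on spots and 2 of the processing alternatives, and the genotypes were not compared.

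The mucosa of the large intestine is lined by a single layer of epithelium folded into crypts. Stem cells at the crypt base give rise to absorptive colonocytes, which take up water, salt and short-chain fatty acids, to goblet cells, which secrete mucus, and to rarer hormone-producing enteroendocrine cells and chemosensory tuft cells. Beneath the epithelium lie fibroblasts, vessels, immune cells and a thin muscle layer. Paneth cells, which release alpha-defensins and lysozyme, belong to the small intestine and are normally missing from the mouse colon.

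Each array held 43379 spots that were not controls, for 41174 probes, of which 25097 could be tied to 1 of 17305 genes. The scanner software marked a spot as well above its local background for 76.13% and 76.53% of these spots in the Cy5 samples 1 and 2, and for 65.81% and 63.33% in the Cy3 samples 4 and 5. Values below are log2 of the median spot signal after background correction and quantile normalisation of the 4 wild-type channels. Sets of 4 values are given in the order of samples 1, 2, 4 and 5. The brightness of a spot depends on its probe as well as on the transcript, so values are compared between samples for 1 probe and not between genes.

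Of the 17305 genes, 12914 (74.6%) were well above background in all 4 samples, 2251 in 1 to 3 samples and 2140 (12.4%) in none. The flag was set more often in the Cy5 samples. A total of 996 genes were well above background only in the Cy5 samples 1 and 2, and 0 only in the Cy3 samples 4 and 5. A further 501 genes passed in all but sample 5. As a measure of how often the flag is set for genes that are mainly used outside the gut, 219 of 1014 olfactory and vomeronasal receptor genes (21.6%), which encode the odour and pheromone receptors of the nose, passed in all 4 samples and 450 in none. Of 10 photoreceptor genes, 1 (Pde6b, a phosphodiesterase subunit of rods) passed in all 4 samples and 6 in none.

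The labelled tissue was checked against its defining markers. All 15 colonocyte markers with a probe, all 13 goblet cell markers, all 12 markers of crypt stem cells and Wnt targets, all 12 enteroendocrine markers and all 9 tuft cell markers were well above background in every wild-type sample, beside 74.6% of all genes. All 16 intestinal transcription factors did the same. Among them were the caudal-type homeobox factors Cdx1 and Cdx2, and the nuclear receptor Hnf4a. Cdx2 had values of 15.28, 15.34, 15.53 and 15.57, and Hnf4a of 13.4, 12.91, 13.03 and 13.13. Both varied by less than 2-fold over the 4 samples.

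**Figure D1:**
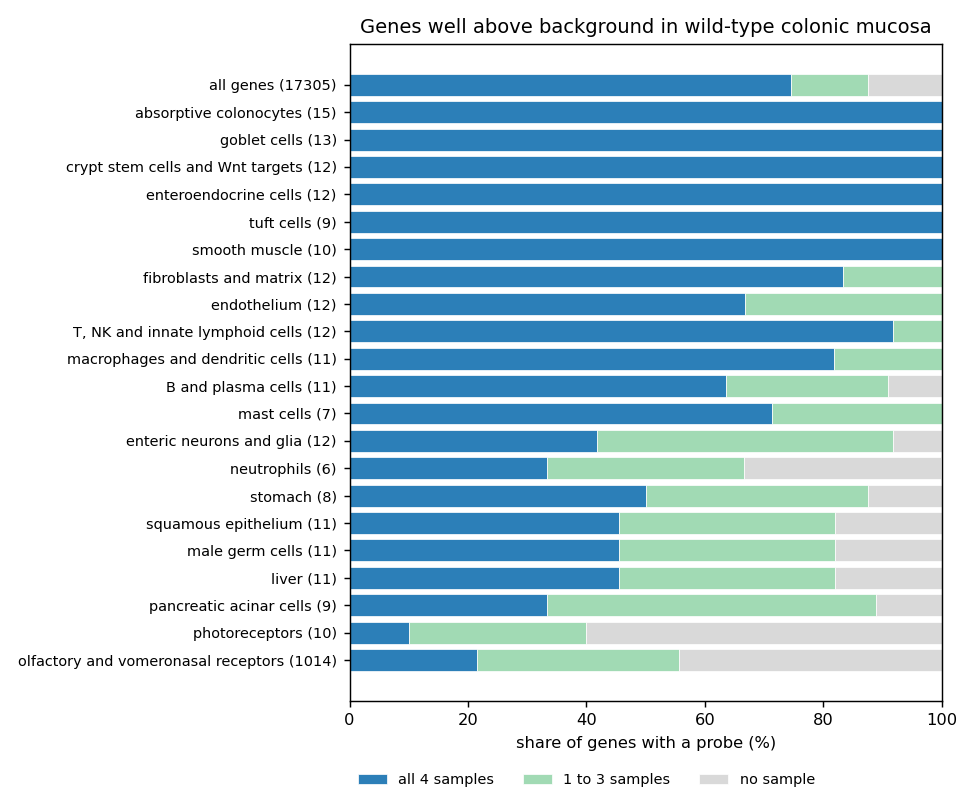
Share of genes (x axis, %) that passed the background flag in all 4 wild-type samples (blue), in 1 to 3 (green) and in none (grey), for marker lists with the number of genes with a probe in parentheses. The lists of intestinal epithelium shown reach 100% in all 4 samples, squamous epithelium 45.5%, all genes 74.6%, and the olfactory and vomeronasal receptors 21.6%. The small intestinal enterocyte and Paneth cell lists are not drawn.

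Markers of other cells in the mucosa passed in varying shares, to be read beside the 74.6% of all genes. Of 12 markers of T, NK and innate lymphoid cells, 11 were well above background in all 4 samples, as were 9 of 11 macrophage and dendritic cell markers, 10 of 12 fibroblast and matrix genes, 8 of 12 endothelial genes and 10 of 10 smooth muscle genes. B and plasma cell markers passed in 7 of 11 cases and enteric neuron and glia markers in 5 of 12. Of 6 neutrophil markers, 2 passed in all samples and 2 in none, and S100a8, an abundant calcium-binding protein of neutrophils, passed in 1 sample. Of the inducible defence genes, Nos2 (inducible nitric oxide synthase), Lcn2 (the iron-scavenging lipocalin) and Camp (cathelicidin) were not well above background in any sample. Of the small intestinal lists, 13 of 15 enterocyte genes and 4 of 4 Paneth cell genes passed in all 4 samples. The flag therefore does not set the colon apart from the small intestine. Shares for other organs that were not sampled were 5 of 11 for liver, 4 of 8 for stomach and 5 of 11 for squamous epithelium. They were 5 of 11 for male germ cells and 3 of 9 for the exocrine pancreas. Several of these lists hold genes that the gut also uses, such as Tat (tyrosine aminotransferase) at 12.12, 11.65, 12.35 and 12.1 in the liver list.

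At the upper end, 295 genes had a saturated spot in at least 1 sample and 47 in all 4. Saturation was more frequent in the Cy5 samples, with 273 and 215 genes in samples 1 and 2 against 55 and 64 in samples 4 and 5. Among the list members, those saturated in all 4 samples were Car1 (a carbonic anhydrase of colonocytes), Guca2a (guanylin, which sets chloride and water secretion), Zg16 (a lectin of the mucus layer), Tff3 (trefoil factor of goblet cells), Cldn7 (a tight junction claudin), Lypd8 (a secreted protein that keeps flagellated bacteria off the epithelium), Rplp0 (a ribosomal protein) and Cox4i1 (a subunit of cytochrome c oxidase). Of the 15 colonocyte markers 9 were saturated somewhere, and of the 13 goblet cell markers 6. A saturated spot gives only a lower bound, so these genes were left out of the measures of spread.

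Spread was measured over the 12620 genes that were well above background in all 4 samples and saturated in none. The median SD over the 4 samples was 0.198 log2 and the median range, from the lowest to the highest sample, 0.443 log2. The range exceeded 2-fold for 918 genes (7.27%) and 4-fold for 63 (0.499%). Pearson correlations across these genes lay between 0.982 and 0.99 for the 6 pairs of samples. Samples 4 and 5 differed by over 2-fold at 128 genes, and samples 1 and 2 at 434. For 163 probes printed at least 5 times on an array, the median SD between single spots of 1 array was 0.114 log2. Between samples it was 0.201 log2, a ratio of 1.76. The SD between samples was taken on means over a probe's spots, most often 10, which vary less than single spots. The ratio therefore does not give the share of spot noise in the spread between samples.

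**Figure D2:**
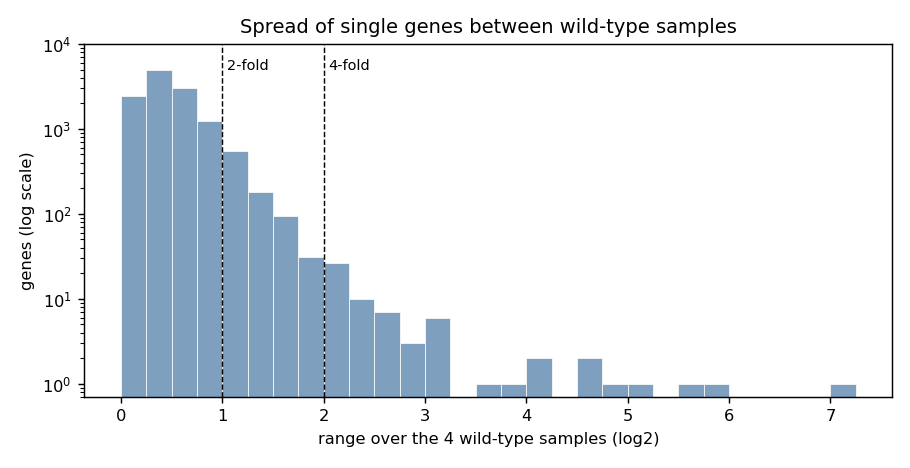
Number of genes (y axis, log scale) by their range over the 4 wild-type samples (x axis, log2, bins of 0.25), with dashed lines at 2-fold and 4-fold. Of 12620 genes 918 lie to the right of the 2-fold line and 63 to the right of the 4-fold line.

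The 10 genes commonly used as references that were saturated in no sample had a median range of 0.472 log2, beside 0.443 for all genes, and 0 passed a 2-fold range, which is near the 7.27% of all genes for a list of this size. Pgk1, a glycolytic enzyme, had values of 14.95, 14.75, 14.79 and 14.94, and Actb, cytoplasmic beta-actin, had the widest range of the 10 at 0.75 log2. The median range was 0.341 for 8 mitochondrial respiratory chain genes and 0.481 for 11 proliferation genes, with 0 past 2-fold in both lists, again near the share of all genes. Mki67, a marker of dividing cells, was at 11.9, 12.38, 12.11 and 12.5. The 10 smallest ranges belonged to Eid3, Fam220a, Zfp948, Klhl32, Insm2, Zbtb5, Rasa1, Gjd3, Hydin and Rph3a, at 0.02 or 0.03 log2 each. Of these, 6 had values between 6.26 and 6.48, in the range of probes that were not well above background in other samples.

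Where a gene had a second usable probe, it was asked whether both probes put the same sample highest. Of 4330 such genes, 47.2% did so, and of the 288 among them whose brightest probe passed a 2-fold range, 69.1%. Highest and lowest sample were both the same for 26.1% of all genes with a second probe and for 47.9% of those 288.

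The widest ranges came from a small number of genes, with 1 sample far from the other 3. Sample 5 was the highest in 35 of the 63 genes past a 4-fold range (55.6%), and sample 2 the lowest in 34 (54.0%). Sample 5 stood over 2-fold above the next sample at 33 genes, beside 19 for sample 1, 12 for sample 2 and 4 for sample 4.

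**Figure D3:**
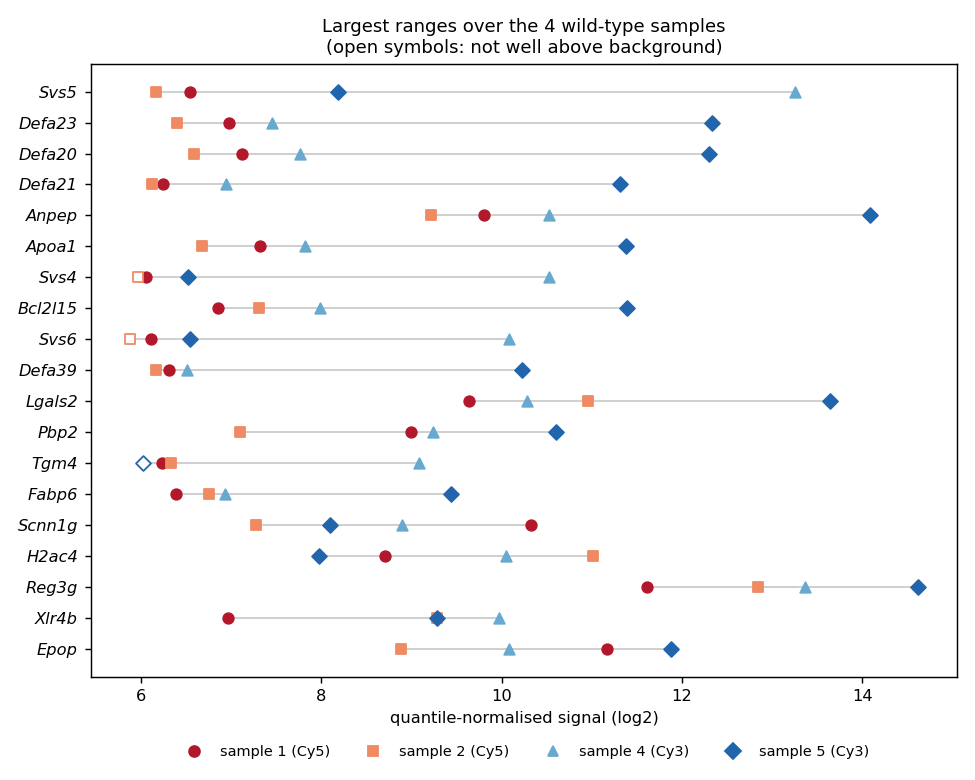
Quantile-normalised signal (x axis, log2) of 19 of the 20 genes with the widest range, 1 symbol per wild-type sample, with open symbols where a probe was not well above background. Sample 5 (dark blue diamonds) is the highest at the 4 alpha-defensins shown, Anpep, Apoa1 and Fabp6, and sample 4 (light blue triangles) at Svs4, Svs5, Svs6 and Tgm4.

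Alpha-defensins, the antimicrobial peptides of Paneth cells, had 4 of the 20 widest ranges, all with sample 5 highest. Defa23 had values of 6.98, 6.4, 7.45 and 12.33. Defa20 was at 7.12, 6.59, 7.77 and 12.3, and Defa21 at 6.25, 6.12, 6.94 and 11.31. For each of these 3 genes samples 1, 2 and 4 lay near each other, and sample 5 was far above them. Defa39 was at 6.31, 6.17, 6.51 and 10.23, and its second probe at 6.27, 6.15, 6.28 and 9.69.

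The family was then read as a whole, a choice made after its values were seen. It had 7 genes with a probe. Defa22 and Defa31 were also highest in sample 5, at 8.48 and 7.62, and Defa22 was not well above background in samples 2 and 4 and Defa31 not in sample 4. Defa3 was the exception. Its brightest probe was nearly flat, at 11.3, 11.54, 11.5 and 11.45, while its other probe gave 7.43, 6.6, 8.07 and 12.76. Alpha-defensin transcripts are close to identical in sequence, so a probe named for 1 of them may also take up others, and the 7 genes cannot be counted as separate observations.

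The 120 bases before the annotated start are shown for 3 of them, on the strand of the gene, from the promoter table of RefSeq on GRCm38.p6. Capitals mark TATAAA on the gene's strand and CTTTGAT on either strand (ATCAAAG where it lies on the other). The letters TATAAA are the core of the TATA box, and CTTTGAT is the core bound by TCF/LEF factors, the nuclear partners of Wnt signalling.
Defa20 (chr8:21509138-21509257, + strand): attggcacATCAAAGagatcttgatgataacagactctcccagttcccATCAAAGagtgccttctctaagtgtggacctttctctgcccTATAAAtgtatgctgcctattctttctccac
Defa21 (chr8:21025425-21025544, + strand): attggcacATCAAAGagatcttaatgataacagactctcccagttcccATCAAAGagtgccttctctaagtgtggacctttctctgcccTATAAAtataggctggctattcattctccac
Defa23 (chr8:21054920-21055039, + strand): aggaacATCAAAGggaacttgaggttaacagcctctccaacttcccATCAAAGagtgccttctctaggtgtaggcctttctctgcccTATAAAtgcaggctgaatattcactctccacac
Defa20 and Defa21 had the same base at 115 of 120 positions, and Defa21 and Defa22 at 120 of 120. Defa23, compared position by position without gaps, had the same base as Defa20 at 42 positions and as Defa21 at 41. These counts do not measure likeness, since the Defa23 window is shifted, with TATAAA beginning 33 bases before the start and not 31. Each of the 3 sequences holds TATAAA once, beginning 31 or 33 bases before the start, and CTTTGAT in 2 places, and the motifs do not overlap. Over all 27025 promoter entries, 4.54% hold TATAAA on the gene's strand in this window and 1.46% hold CTTTGAT on either strand. The match is a description of the letters only.

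Other Paneth cell genes followed a different order. Lyz1, lysozyme of Paneth cells, was at 9.12, 10.36, 9.64 and 10.4, Itln1, an intelectin, at 6.98, 9.05, 7.21 and 9.11, and Mmp7, the protease that activates alpha-defensins, at 7.47, 8.72, 8.72 and 8.36. For Lyz1 and Itln1 samples 2 and 5 were both high. The Paneth cell list of 8 had only 4 genes with a probe, and sample 1 was the lowest at all 4. For Defa3 this holds only on its nearly flat brightest probe, with a range of 0.24 log2. Its other probe was lowest in sample 2.

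Sample 5 was also highest for many genes of the absorptive cells of the small intestine. Anpep, aminopeptidase N of the brush border, was at 9.81, 9.22, 10.53 and 14.09 (mean 10.91 ± 2.18, SD, n = 4). Apoa1, the apolipoprotein of high-density lipoprotein, was at 7.32, 6.68, 7.82 and 11.38. Fabp6, the bile acid-binding protein of the ileum, was at 6.39, 6.76, 6.93 and 9.44. In all 3, sample 5 was farther from the next sample than the other samples were from each other.

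Of 12 unsaturated members of the small intestinal enterocyte list, 7 passed a 2-fold range (all genes 7.27%), and 3 passed 4-fold (all genes 0.499%). This list, like the others here, was chosen with earlier results of these data known, so such shares only describe it. The medians of the list, each sample minus the gene mean, were -0.18, -0.55, -0.12 and 0.66. Sample 5 had the highest median under all 10 processing alternatives in which the 4 samples can be ranked. Sample 2 was the lowest under 9 of them (sample 4 with the gene-specific dye effect removed). That effect was estimated as the mean difference between red and green over the 4 arrays. Removing it therefore also takes out part of any true difference between samples 1 and 2 and samples 4 and 5. Without sample 5 the span of the list's medians fell from 1.21 to 0.41. Leaving out the sample at one end makes such a span smaller almost by construction. The fall alone therefore does not set a sample apart, here or in the lists below. Not every member followed, and sample 5 was the highest at 7 of the 12. Rbp2 passed a 2-fold range with sample 1 highest, at 10.38, 8.85, 9.77 and 10.05. Its second probe also had sample 1 highest, at 10.58, 8.9, 9.61 and 9.87. Slc10a2, the ileal bile acid transporter, was at 12.32, 11.96, 12.94 and 12.72, with a second probe at 12.43, 11.89, 12.77 and 12.5. Gata4, a transcription factor of the upper small intestine, was at 6.45, 6.43, 6.57 and 6.57. Lct (lactase) was well above background in 2 samples, at 6.1, 6.12, 6.14 and 6.27.

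More genes past a 4-fold range had sample 5 at the top. Enpep (glutamyl aminopeptidase) was at 10.49, 9.78, 10.9 and 12.69, Pdzk1 (a scaffold protein of the brush border) at 7.02, 6.57, 6.85 and 9.36, and Slc6a19 (the transporter of neutral amino acids) at 6.76, 6.31, 6.5 and 8.78. Lgals2, a galectin of the gut epithelium, was at 9.64, 10.96, 10.28 and 13.64, and Ccl25, the chemokine that draws lymphocytes to the small intestine, at 10.43, 11.04, 11.1 and 12.77. Reg3g, an antibacterial lectin of the epithelium, was spread over all samples at 11.61, 12.85, 13.37 and 14.62. Socs3, an inhibitor of cytokine signalling, was at 9.84, 10.19, 10.46 and 12.51. These genes, with Cfd below, were picked from the 63 after their values were seen.

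Adipocyte genes were highest in the same sample. All 8 members of that list that were tested had their highest value in sample 5, and 6 of them passed a 2-fold range, beside 7.27% of all genes. Cfd (adipsin) was at 8.16, 7.93, 8.42 and 10.54, Adipoq (adiponectin) at 6.69, 6.48, 6.73 and 8.17, and Fabp4 (the fatty acid-binding protein of fat cells) at 8.86, 8.85, 9.49 and 10.41. The list medians were -0.26, -0.49, -0.19 and 0.8, with sample 5 highest and sample 2 lowest under all 10 alternatives. Without sample 5 the span fell from 1.3 to 0.36. Lep (leptin) was not well above background in any sample. In tissue RNA, more cells of a type and more RNA per cell cannot be told apart, and the part of fat or of small intestinal cells in the values of sample 5 was not tested.

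Sample 4 stood apart at genes of the seminal vesicle, a male accessory gland whose secretory proteins make up much of the seminal fluid. Svs5 had the widest range of all genes, at 6.54, 6.17, 13.26 and 8.19, a 136-fold difference between samples 2 and 4 on this scale. Svs4 was at 6.06, 5.97, 10.53 and 6.52, and Svs6 at 6.11, 5.88, 10.08 and 6.55, with sample 2 not well above background for either gene. Tgm4, a transglutaminase of the prostate, was at 6.23, 6.33, 9.08 and 6.02, with sample 5 not well above background. Sample 5 was the second highest at Svs4, Svs5 and Svs6.

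The other members of the family were looked at after these values were seen. Svs2, Svs3a and Pate4 were well above background in sample 4 and in no other sample, at 7.08, 7.66 and 6.88, and Svs1 was at 6.03, 5.95, 6.56 and 5.93. Of 5 sex-linked genes, the Y-linked Eif2s3y, Ddx3y, Uty and Kdm5d were well above background in all 4 samples, and Xist, the RNA that coats the inactive X chromosome, in none. Svs4, Svs5 and Svs6 lie close together on chromosome 2, and the upstream sequences are shown with TATAAA on the gene's strand in capitals.
Svs4 (chr2:164278308-164278427, - strand): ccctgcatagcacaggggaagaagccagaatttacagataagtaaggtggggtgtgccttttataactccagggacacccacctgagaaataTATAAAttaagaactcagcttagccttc
Svs5 (chr2:164332645-164332764, + strand): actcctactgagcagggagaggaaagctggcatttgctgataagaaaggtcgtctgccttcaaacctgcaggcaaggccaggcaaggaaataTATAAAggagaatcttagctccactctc
Svs6 (chr2:164316631-164316750, + strand): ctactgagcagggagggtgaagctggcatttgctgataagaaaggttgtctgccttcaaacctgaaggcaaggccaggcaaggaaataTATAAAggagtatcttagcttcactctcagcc
TATAAA begins 28 to 32 bases before the start in these 3 genes. CTTTGAT is in none of the 3 windows, which says only that these letters are not there.

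T, NK and innate lymphoid cell markers were highest in sample 4 in 10 of 11 cases. The medians of the list were -0.26, -0.17, 0.43 and 0. Cd3d, a chain of the T cell receptor complex, was at 7.52, 8.18, 8.72 and 8.28, and Gzma (granzyme A) at 7.77, 7.84, 8.94 and 8. Cd3d and Gzma were the 2 of the 11 tested members that passed a 2-fold range, beside 7.27% of all genes. Sample 4 was highest under all 10 alternatives, and sample 1 lowest under 9 (sample 5 with the gene-specific dye effect removed). That removal also brought the span from 0.69 to 0.33, but it takes out part of any true difference between the Cy5 and Cy3 samples too. Fibroblast and matrix genes were highest in sample 4 in 6 of 10 cases, with medians of -0.07, -0.04, 0.32 and -0.27, and lowest in sample 5 in 8. Dcn (decorin, a matrix proteoglycan) was at 8.4, 8.66, 9.96 and 8.84, and Col3a1 (type III collagen) at 8.84, 9.14, 9.55 and 8.2. Sample 4 stayed highest under all 10 alternatives for this list, and sample 5 lowest under 9, with sample 1 lowest under 75th percentile scaling. The seminal vesicle genes were highest in the same sample, and their part in these differences was not tested.

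B cell genes had another order. Cd79b, a signalling chain of the B cell receptor, was at 6.85, 9.35, 7.55 and 8.25, and Ms4a1 (CD20) at 6.59, 8.21, 6.92 and 7.33, both highest in sample 2 and lowest in sample 1. Jchain, which joins secreted IgA into dimers and marks plasma cells, was instead highest in sample 4 and lowest in sample 5, at 9.11, 9.17, 10.56 and 7.95. Of the 7 tested members of the B and plasma cell list these 3 passed a 2-fold range, beside 7.27% of all genes.

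The colon is patterned along its length by Hox genes, transcription factors whose paralog groups 10 to 13 mark the posterior end of the body axis. Of 11 genes of groups 10 to 13 with a probe, 6 were well above background in all 4 samples, and all 6 were highest in sample 1. Hoxd13 was at 11.38, 10.2, 9.63 and 8.9 on its brightest probe and at 9.69, 8.19, 7.95 and 6.94 on its other probe, so both put the samples in the same order. Hoxa13 was at 10.34, 9.64, 8.76 and 8.63, Hoxb13 at 13.96, 13.57, 13.06 and 12.41, and Hoxd10 at 9.41, 7.49, 7.96 and 7.37. For Hoxd13, Hoxa13 and Hoxb13 the Cy5 samples 1 and 2 both lay above the Cy3 samples 4 and 5, and for Hoxd13 and Hoxb13 samples of the same dye differed as well. The part of the dye in this order cannot be told apart from that of the samples.

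The medians of these 6 genes were 0.86, 0.19, -0.35 and -0.7, and 4 of the 6 passed a 2-fold range, beside 7.27% of all genes. Those 4 are the genes named above. Hoxa10, at 10.68, 10.52, 9.82 and 10.24, and Hoxa11, at 8.2, 7.78, 7.62 and 8.09, did not pass it. Sample 1 was highest under all 10 alternatives, and sample 5 lowest under 8, with sample 2 lowest once the gene-specific dye effect was removed and sample 4 with no filter on detection. Removing the dye effect brought the span of the medians from 1.55 to 0.6, and without sample 1 it was 0.75. Since the removal also takes out part of any true difference between samples 1 and 2 and samples 4 and 5, the smaller span does not measure the dye. The anterior groups 1 to 9 were ordered differently. Of 18 genes tested 11 had their lowest value in sample 1, and the medians were -0.28, 0.11, 0.09 and 0.04. Hoxb6 was at 11.72, 12.52, 13.06 and 12.45, and Hoxb5 at 9.26, 10.18, 10.63 and 9.81, with sample 4 highest at both. Sample 2 had the highest median of groups 1 to 9 under 9 of 10 alternatives (sample 4 under 75th percentile scaling), and sample 1 the lowest under 9 (sample 5 with the dye effect removed).

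**Figure D4:**
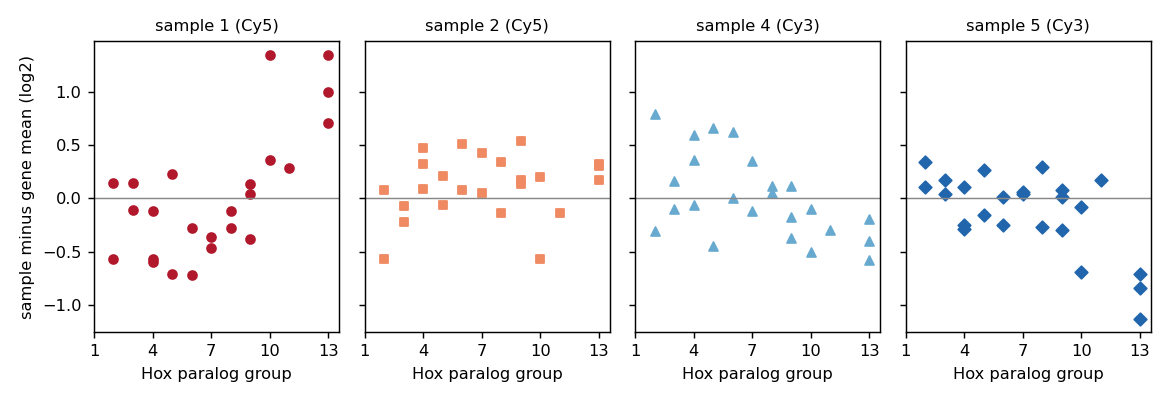
Deviation of each wild-type sample from the mean of the 4 samples (y axis, log2) for the 18 Hox genes of groups 1 to 9 and the 6 of groups 10 to 13 that were well above background in all samples, by paralog group (x axis). Groups 10 to 13 lie above 0 in sample 1 for all 6 genes, and sample 5 is the lowest of the 4 samples for 4 of the 6.

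The 120 bases before the start of Hoxd13 are shown as a contrast to the sequences above, since they hold neither TATAAA nor CTTTGAT.
Hoxd13 (chr2:74668105-74668224, + strand): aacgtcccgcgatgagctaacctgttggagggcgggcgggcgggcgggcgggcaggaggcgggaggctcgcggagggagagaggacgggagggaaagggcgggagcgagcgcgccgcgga
In the 300-base window of the promoter table, the ratio of observed to expected CpG was 0.904 for Hoxd13, and between 0 and 0.175 for the 3 defensin and 3 seminal vesicle genes shown.

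Genes of salt and water transport, the main task of the distal colon, also had their highest median in sample 1. Scnn1g, the gamma subunit of the epithelial sodium channel, was at 10.33, 7.28, 8.9 and 8.1, and Scnn1b, the beta subunit, at 9.83, 8.78, 8.89 and 8.44. Hsd11b2, which shields the mineralocorticoid receptor from glucocorticoids, was at 12.64, 11.67, 11.27 and 11.09. The list medians were 0.28, -0.09, -0.06 and -0.3, and 5 of 12 members passed a 2-fold range, beside 7.27% of all genes. Sample 1 was highest under all 10 alternatives, and sample 5 lowest under 9 (sample 2 with the dye effect removed). Scnn1a, the alpha subunit, did not share the range, at 13.68, 12.85, 13.24 and 13.54. Tight junction genes had medians of 0.3, 0.06, -0.01 and -0.08, and Cldn4 (claudin 4) was at 10.65, 8.9, 9.73 and 9.96.

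Smooth muscle genes were highest in sample 1 in 8 of 10 cases and lowest in sample 2 in 7. Cnn1 (calponin, which binds actin in the contractile apparatus) was at 10.48, 8.38, 9.54 and 8.59, Myh11 (smooth muscle myosin) at 8.47, 6.85, 7.63 and 7.14, and Acta2 (smooth muscle actin) at 14.67, 13.37, 13.55 and 13.73. The medians were 0.72, -0.38, 0.09 and -0.29, with sample 1 highest and sample 2 lowest under all 10 alternatives, and without sample 1 the span fell from 1.1 to 0.52. Mylk (myosin light chain kinase) was an exception, at 12.36, 12.54, 13.15 and 12.87. Of the 10 members 5 passed a 2-fold range, beside 7.27% of all genes. The part of muscle in the other genes that were highest in sample 1 was not tested.

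Cholesterol synthesis genes were highest in sample 1 in 10 of 11 cases and lowest in sample 4 in 9. Sqle (squalene epoxidase) was at 13.58, 13, 12.26 and 13.04, Fdft1 (squalene synthase) at 12.78, 12.17, 11.64 and 12.2, and Hmgcs1 (the synthase that makes HMG-CoA) at 14.41, 13.94, 13.26 and 14.09. Samples 2 (Cy5) and 5 (Cy3) were close to each other in all 3 genes. The list medians were 0.48, 0.01, -0.49 and 0, and 6 of the 11 genes passed a 2-fold range, beside 7.27% of all genes. Both extremes held under all 10 alternatives. Without sample 1 the span fell from 0.97 to 0.52, and without sample 4 to 0.47.

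Goblet cell genes had their highest median in sample 2, and 4 of the 7 unsaturated ones were highest there. Retnlb (resistin-like beta, a goblet cell protein) was at 12.28, 14.26, 11.79 and 12.64, Spink4 (a protease inhibitor of goblet cells) at 13.91, 15.28, 14.1 and 14.94, and Spdef (a goblet cell transcription factor) at 12.33, 13.54, 12.83 and 12.3. The medians of the 7 genes were -0.08, 0.55, -0.13 and -0.1, with sample 2 highest and sample 4 lowest under all 10 alternatives, and without sample 2 the span fell from 0.68 to 0.15. Retnlb, Spink4 and Spdef were the 3 of the 7 genes that passed a 2-fold range, beside 7.27% of all genes. Bcas1, another goblet cell gene, was flat at 13.15, 13.25, 13.24 and 13.28. Ang4 and Ang6, secreted angiogenins picked from the genes past a 4-fold range after their values were seen, were at 12.1, 14.49, 12.49 and 12.3 and at 10.69, 12.8, 11.21 and 11.03. Crypt stem cell and Wnt target genes were highest in sample 2 in 9 of 12 cases, but with smaller differences. Lgr5, the receptor that marks crypt stem cells, was at 8.83, 9.53, 8.95 and 9.08, and Ephb3, which positions cells along the crypt, at 10.72, 11.82, 11.25 and 10.62. Their medians were -0.22, 0.28, -0.08 and -0.14, with sample 2 highest under all 10 alternatives and sample 1 lowest under 9 (sample 5 for the mean of all probes).

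Interferon-stimulated genes were lowest in sample 2 in 11 of 13 cases. Irf7, a transcription factor of the interferon response, was at 12.65, 10.68, 11.67 and 11.81, Gbp2 (a guanylate-binding protein) at 10.47, 9.34, 10.82 and 10.27, and Rsad2 (viperin) at 9.11, 8.18, 9.1 and 9.51. The medians were 0.03, -0.3, 0.04 and 0.28, with sample 5 highest and sample 2 lowest under all 10 alternatives, and without sample 2 the span fell from 0.59 to 0.24. The 3 genes named were those of the 13 that passed a 2-fold range, beside 7.27% of all genes. Ifit1, the first of the list, was at 10.17, 9.33, 9.59 and 10.19.

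Differentiated colonocyte genes could be read only in part, since 9 of 15 were saturated. Slc26a3, the chloride and bicarbonate exchanger, was at 14.07, 12.99, 14.03 and 14.52, and Guca2b (uroguanylin) at 11.57, 12.79, 12.65 and 12.85. The 6 unsaturated members had medians of -0.06, -0.32, 0.12 and 0.33, with sample 2 lowest under all 10 alternatives and sample 5 highest under 9 (sample 1 with the dye effect removed). Clca4a, a chloride channel accessory protein picked after its values were seen, was at 14.41, 11.96, 13.08 and 14.74.

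**Figure D5:**
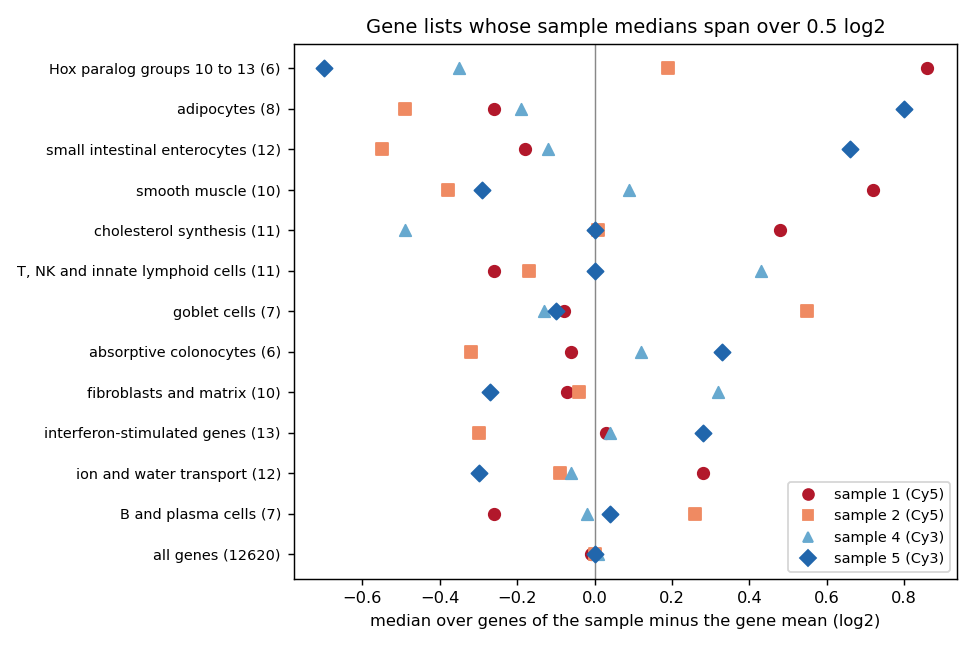
Median over genes of each wild-type sample minus the gene mean (x axis, log2) for the 12 lists with at least 5 tested genes whose medians span over 0.5, with the number of tested genes in parentheses, and for all genes. The median of all genes lies between -0.01 and 0.01 in the 4 samples, while the posterior Hox genes span 1.55 and adipocyte genes 1.3, and some of the samples at the ends change with the processing as given in the text.

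Circadian clock genes oscillate over the day, and their state in each sample was therefore looked at. Of 15 genes tested 4 passed a 2-fold range, beside 7.27% of all genes. Arntl (Bmal1, the positive arm of the clock) was at 11.63, 10.68, 10.65 and 11.12, Nr1d1 (Rev-erb alpha, its repressor) at 12.19, 11.47, 11.61 and 11, and Dbp (a clock output factor) at 13.8, 13.99, 14.71 and 13.99. Cry1 (cryptochrome 1, of the negative arm) had the widest range, at 8.27, 6.73, 7.14 and 7.58. Immediate early genes, which respond within minutes to handling of the tissue, passed a 2-fold range in 4 of 14 cases together with heat shock genes, beside the same 7.27%. Fos was at 12.61, 11.33, 11.76 and 12.41, and Dusp1 (a phosphatase induced by stress) at 11.53, 9.95, 10.53 and 10.46, while Egr1 was even at 10.47, 10.46, 10.35 and 10.37. For both lists sample 2 had the lowest median under all 10 alternatives.

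Tlr2, the receptor for bacterial lipoproteins that the study deleted in its other group, was well above background in every wild-type sample. It was at 11.39, 11.8, 12.34 and 11.97 (mean 11.88 ± 0.393, SD, n = 4), a range of 0.95 log2. Its partner receptors Tlr1 and Tlr6 were at 12.02, 12.01, 11.61 and 11.95 and at 6.57, 6.6, 6.57 and 6.93. Of 12 Toll-like receptor and adaptor genes tested 0 passed a 2-fold range, near the 7.27% of all genes for a list of this size. Among these were Tlr4 at 9.45, 9.1, 9.71 and 9.58, its co-receptor Cd14 at 11.83, 11.98, 11.42 and 11.69, and the adaptor Myd88 at 11.57, 11.69, 11.75 and 11.81. Tlr8 was not well above background in any sample, and Tlr7, a sensor of RNA like Tlr8, in only 1.

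A few wide ranges fell outside these groups. Scd2 (a fatty acid desaturase, chosen after its values were seen) was at 14.87, 14.16, 12.77 and 13.71. Xlr4b, of the X-linked Xlr family, was at 6.97, 9.29, 9.97 and 9.29, and its other probe gave 6.12, 6.27, 6.42 and 6.12. That other probe was too dim throughout to show whether it follows the first. Xlr3c, of the same family and chosen after its values were seen, was at 6.6, 8.45, 8.95 and 8.62. Whether probes of this family take up each other's transcripts was not tested. H2ac4, a replication-dependent histone gene, was at 8.71, 11.01, 10.05 and 7.98, and Epop, a cofactor of Polycomb repression, at 11.17, 8.88, 10.08 and 11.88. Bcl2l15, of the Bcl-2 family, was at 6.86, 7.31, 7.99 and 11.39, and Pbp2, related to phosphatidylethanolamine-binding protein, at 9, 7.1, 9.24 and 10.6.

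Since each dye was carried by 2 of the samples, the dye could be tested but not told apart from the samples. Across 12620 genes, limma called 0 genes higher in Cy5 (0%) and 0 higher in Cy3 (0%) at an adjusted p of 0.05, and the smallest adjusted p was 0.987. An unadjusted p under 0.05 was found for 551 genes (4.37%). In simulated data of the same size, the test recovered 2% of 100 genes changed by 2-fold and 49% of 100 genes changed by 4-fold, so most 2-fold differences between dyes at single genes would have been missed. The values of the Cy5 and Cy3 samples did not overlap for 32.9% of all genes, for 29.4% of the 918 genes past a 2-fold range and for 44.4% of the 63 genes past a 4-fold range. The median SD within a dye was 0.185 log2, beside 0.198 over all 4 samples. The first comes from differences within pairs of samples and the second from all 4 together, so the gap does not measure what the dye adds.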

How the data were processed

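Two-colour expression arrays of colonic mucosa were used for their wild-type channel. The deposited scanner files hold spot intensity per channel (median signal and local background), made with Agilent Feature Extraction, with its version given as 10.5.1.1 per the file headers while the submitters' processing notes give 8.5.1.1. The processed intensity in the same files had background subtracted and 1 linear dye factor applied, per the file headers, and served as an alternative. The deposited log ratios, hit tables and methylation arrays were not used here.

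Background was corrected with normexp (offset 50) in limma 3.58.1 under R 4.3.3, and the 4 wild-type channels were quantile normalised together, which forces them to 1 distribution and can hide a shift shared by many genes. The offset shrinks differences of dim probes. Control spots and outlier spots were left out. Spots whose local background in either channel exceeded 1.5 times the array median were also left out, a choice made after the data were seen, because 1 bright area distorted the background fit of sample 5's array. Spots of 1 probe were averaged, and a gene was represented by its brightest probe. A gene was well above background where most of its probe's spots carried the scanner software's flag.

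Probes were named by accession through a RefSeq gene table of GRCm38.p6, and 16077 probes had no symbol or several. The headers name mm9, and no genome of that build was used. For promoters the first RefSeq entry of a gene was taken. Entries were found for 80.4% of the genes well above background in all samples, but for 79.4% of those in none and 76.2% of those past a 4-fold range, so comparing promoters between these classes is void and was not done. Protein sequences and probe sequences were not used here.

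Spread was described by SD and range without a test. A list was described by its counts and by the median over its genes of each sample minus the gene mean. Dyes were compared with lmFit and eBayes and Benjamini-Hochberg adjustment, a procedure also run on simulated data. The p-values set the difference between the dye means against the spread between samples of the same dye, which may be technical. The number of arrays limits the precision.

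The genes named were drawn from Tlr2, the members of the lists, the 20 widest and 10 smallest ranges, and others marked as chosen after their values were seen. The plan was to name the first 4 genes with a probe of each list, and more where a list is described in depth. In the lists described in depth, the members named were often those with a wide range and not the first 4. Such members do not stand for their list. Some of these genes are not reported here, and they remain in all counts. The members and the 43 lists were chosen with earlier results of these data known. Figures were drawn with matplotlib 3.10.9 in Python 3.11.15.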

Additional observations from a re-analysis of the deposited data

Results flagged for a closer look

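For 162 genes and 35 lists named here, the distance from the outermost sample to its neighbour was divided by the whole range of the 4 wild-type samples. A share above Dixon's critical value for 4 samples marks 1 sample far from the others, and chance gives this for about 5% of groups that were not chosen by their values. That share does not apply to genes chosen for their wide range, which include Defa21, Defa39, Svs4, Svs6 and Tgm4. The lists and their members were chosen with earlier results of these data known, so the share need not hold for them either. The mark was found for 14 genes and 5 lists.

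Sample 5 was the distant one at Defa39 (0.917), Defa21 (0.842), Adipoq (0.849), Apoa4 (0.842), Tlr6 (0.906) and Fgb (0.859). Defa39, Defa21 and Apoa4, an apolipoprotein of the small intestine, belong with the intestinal genes described for that sample, and Adipoq with its adipocyte genes. The range of Tlr6 was only 0.36 log2. Sample 4 was the distant one at Tgm4 (0.897), Svs4 (0.879) and Svs6 (0.842), all genes of male accessory glands, and at Pde6b (0.87), with a range of 0.14, and on the low side at Tlr1 (0.844) and Hoxa2 (0.865). Sample 1 was the distant one at Elavl4 (0.894), an RNA-binding protein of neurons, at 6.87 beside 6.38 to 6.43, and at Ckm (0.866), muscle creatine kinase, with a range of 0.05.

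Among the list medians, sample 2 stood above the others for goblet cells (0.916) and sample 1 below them for tuft cells (0.855). Sample 1 stood above the others for intestinal transcription factors (0.897), and sample 5 for short-chain and fatty acid oxidation (0.905), with spans of 0.27 and 0.16. For skeletal muscle (0.997) the 4 medians spanned 0.01, so the distance has no size.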

How the results depend on the processing

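Of the 4 main measures of spread, the median SD stayed within 0.151 and 0.253 under every alternative. The counts did not. Scaling each sample to its 75th percentile gave 1699 genes past a 2-fold range and 23 lists whose medians span over 0.5, in place of 918 and 12, and shifted the median of all genes to -0.1, -0.05, 0.08 and 0.06 in samples 1, 2, 4 and 5. Agilent's processed signal gave 1818 genes past 2-fold, 152 past 4-fold (63 in the main setting) and 19 lists. Taking each sample minus the mean of its dye gave 519 and 40 genes. The cause was not tested, except that the last setting takes out all difference between dyes. Leaving out 1 sample gave 468 to 761 genes past 2-fold, 28 to 58 past 4-fold and 8 to 9 lists. Fewer samples give smaller ranges, and the counts moved by over 1.5 times without sample 1 (478 and 38), without sample 2 (468 and 36) and, past 4-fold, without sample 5 (28).

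The dye test called 0 genes in either direction under the alternatives run, except that 0 to 1 gene was higher in Cy3 when 1 sample was left out. Without sample 5, where sample 4 alone stood for Cy3 and was assumed to vary like the others, Svs5 had a difference of -6.9 and an adjusted p of 0.0344 in limma. The number of unadjusted p-values under 0.05 ranged from 192 to 2121, the latter under 75th percentile scaling.

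Detection by negative control spots in place of the flag gave 13330 genes in all samples and 1440 in none. Keeping spots beside a bright local background, added after the data were seen, gave 834 and 57 genes, and put the Nxt1 probe A_52_P184398 at 15.57 in sample 5, while the gene's other probe was at 9.99. Of 3351 values of single genes and lists under an alternative, 2826 moved by less than the SD between samples and 525 by more. The promoter alternative was not run, since that comparison is void. No paired analysis was possible because the wild-type samples are 1 group, and the replicate numbers shared between expression and methylation arrays join different measurements. Dim probes limit what can be seen, since a change below the background flag has only a bound.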
